A study of Mus musculus with 43 samples.

Results

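Small RNAs of wild-type (WT) cauda epididymis were compared between the tissue and the luminal fluid of the same segment, with 3 tissue libraries and 3 fluid libraries, 6 of the 43 libraries of the study. They were chosen by their labels alone, and the RNAs compared were the 3051 listed for both materials, of 4890 listed for tissue and 3178 for fluid. All mice were of the FVB strain and 8 to 12 weeks old. The tissue libraries were made by ARM-seq, in which adapters are ligated to the RNA, and the fluid libraries by OTTR-seq, in which a reverse transcriptase joins both adapters, and all RNA had first been treated with PNK so that ends left by RNase cleavage could be captured. Each fluid library held RNA pooled from 3 mice, taken from the supernatant after sperm, cells and vesicles had been spun down, while the number of mice behind a tissue library was not given in the sources used here. KO mice, which lack Rnase9, Rnase10, Rnase11 and Rnase12, gave 3 cauda tissue and 3 cauda fluid libraries that entered no WT value and are given beside it. Because the material and the library method changed together, an effect of the fluid and an effect of the method cannot be told apart for any single RNA, so every value below is a share, a rank or a log2 difference within 1 class of RNA. A share is a count divided by the class total of that library and is not corrected for length. Both methods capture short RNAs, so counts on rRNAs, snRNAs and other long RNAs are counts of fragments.

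The cauda is the last segment of the epididymis, where mature sperm are stored in a fluid that the epithelium and the more proximal segments have conditioned. tRNAs are cut by RNases into 5′ and 3′ fragments (tRFs), which are among the abundant small RNAs of sperm and epididymis. MicroRNAs (miRNAs) are cut from hairpins, guide Argonaute proteins through their seed, and also occur in body fluids bound to proteins or in vesicles. The tissue as collected holds epithelium, a smooth muscle coat, vessels and immune cells, and in bulk RNA fewer cells of a type and less RNA per cell cannot be told apart.

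The miRNAs on which the comparison turned are shown as mature sequences from RefSeq (GRCm38.p6), found for 210 of the 251 miRNA hairpins listed in both materials, with the seed (bases 2 to 8) in capitals. The first set shares a name family and carries 3 seeds, and the hairpins of miR-10 and miR-125b in it were called in opposite directions.
miR-10a-5p: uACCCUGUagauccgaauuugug
miR-10b-5p: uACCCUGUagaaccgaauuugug
miR-99a-5p: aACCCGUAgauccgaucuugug
miR-100-5p: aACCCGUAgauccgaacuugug
miR-125b-5p: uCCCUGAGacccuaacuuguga
The second set shares the seed AGCACCA, and all of its hairpins had a higher share in fluid.
miR-29a-3p: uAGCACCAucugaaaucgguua
miR-29b-3p: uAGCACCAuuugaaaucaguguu
miR-29c-3p: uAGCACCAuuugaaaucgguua
The third set is let-7, in which 1 seed, GAGGUAG, was carried by members that were higher, lower and not called.
let-7a-5p: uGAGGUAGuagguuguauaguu
let-7b-5p: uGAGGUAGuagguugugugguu
let-7c-5p: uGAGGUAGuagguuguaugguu
let-7d-5p: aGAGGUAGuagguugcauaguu
let-7f-5p: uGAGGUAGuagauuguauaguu
let-7g-5p: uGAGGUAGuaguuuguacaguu
The last are markers of blood cells, miR-451a of erythrocytes and miR-223 of myeloid cells, and miR-21, a widely expressed miRNA.
miR-451a: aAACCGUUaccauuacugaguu
miR-223-3p: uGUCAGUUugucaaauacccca
miR-21a-5p: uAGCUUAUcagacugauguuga
The counts were made on hairpins, so the arms of a hairpin were not told apart, and the arm shown is the one usually named.

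The 6 libraries differed in depth. The counts over the RNAs of both tables summed to 31691084, 40192083 and 157376171 in tissue and to 12319896, 10205443 and 8878213 in fluid, where a read that fits several entries equally well was counted on each. miRNA counts were fewer, from 8161 to 95331 in tissue and from 11144 to 46337 in fluid, and fluid held only 287 to 3379 counts of full-length tRNAs and 2 to 18 of mitochondrial tRNAs, so those 2 classes are described by few values. Pearson correlations of log2 values between libraries of 1 material ranged from 0.966 to 0.992. No 2 libraries agreed within sampling noise.

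Of 2066 RNAs tested with edgeR's quasi-likelihood test within their class, 532 (25.8%) had a higher share in fluid and 658 (31.8%) a lower share at a Benjamini-Hochberg adjusted p under 0.05 and a log2 difference beyond 1. The libraries of the 2 materials did not overlap for 1405 RNAs (68%). Of the RNAs tested, 352 passed the filter on low counts through tissue alone and 28 through fluid alone, and for those the filter favoured a difference. Of the 532 higher RNAs, 150 had 10 counts in at most 1 tissue library and so passed mainly through fluid. The KO cauda libraries, which share none with the WT comparison, gave a value for 1128 of the RNAs called, with the same sign for 1102 of them and a call in the same direction for 906. In the KO comparison, 558 of 1997 RNAs (27.9%) were higher and 583 (29.2%) lower in fluid. These KO libraries were made with the same pair of methods, so this does not separate method from material.

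tRNA fragments were split between their 3 types in different proportions. Fragments of the 5′ end (tRF_5) made up 17.1, 17.98 and 25.99% of tRF counts in the tissue libraries and 44.5, 46.7 and 44.4% in the fluid libraries. Fragments from neither end (tRF_other) made up 37.6, 37.2 and 27.4% in tissue and 4.65, 5.77 and 1.83% in fluid. Fragments of the 3′ end (tRF_3) differed least, with 45.4, 44.8 and 46.6% in tissue and 50.9, 47.5 and 53.7% in fluid. The difference of the tRF_3 share of tRF counts, 5.09 percentage points, turned to -2.83 when only the most counted entry of each anticodon was kept. For all 3 types the tissue and fluid libraries did not overlap, and tissue replicate 3, the deepest library, stood apart from the other tissue libraries in tRF_5 and tRF_other. The exact two-sided permutation test cannot go below p = 0.1 with 3 libraries a side, which 157 of the 205 shares compared in this way reached (Benjamini-Hochberg adjusted p = 0.131). WT caput and KO cauda, plotted beside WT cauda, had the same order for tRF_5 and tRF_other, whereas for tRF_3 the mean was lower in fluid than in tissue in KO cauda.

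**Figure D1:**
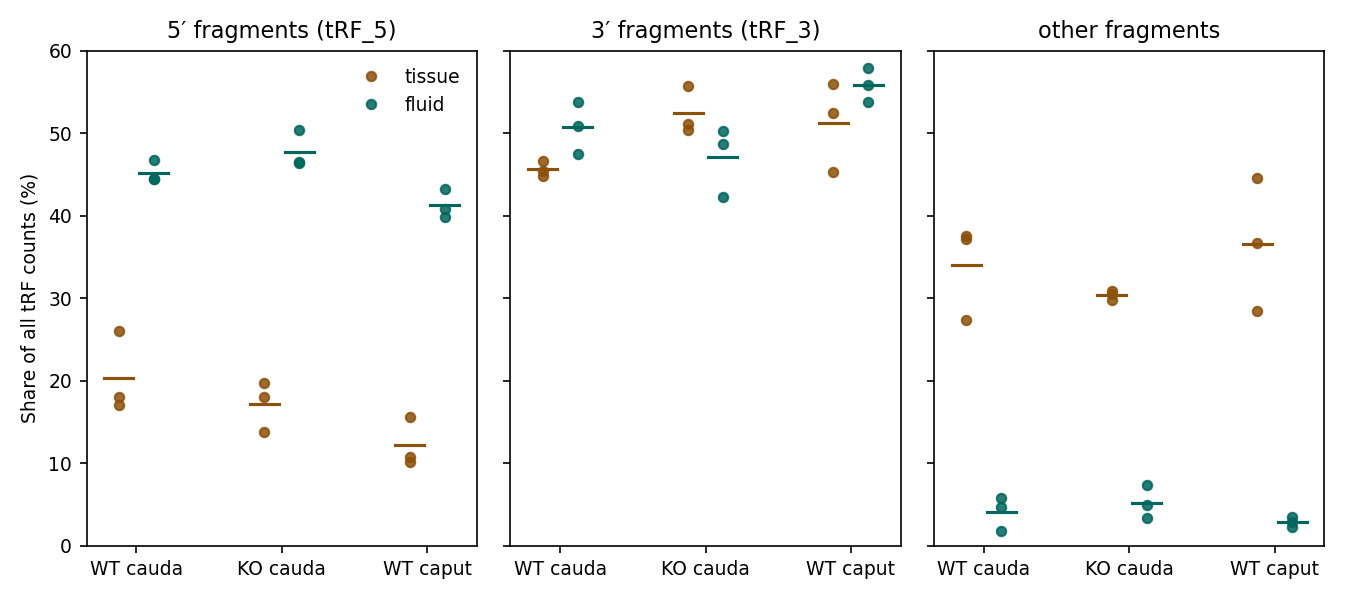
Share of tRF counts (%, vertical axis) taken by 5′, 3′ and other tRNA fragments in tissue (brown) and fluid (green) of WT cauda, KO cauda and WT caput; points are libraries and bars their means. In WT cauda the fluid libraries lie at 44.4 to 46.7% for 5′ fragments and at 1.83 to 5.77% for other fragments, away from the tissue libraries.

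Within tRF_5, the fragment that dominated tissue also dominated fluid. tRNA-Gly-GCC, whose 5′ fragment is a major tRF of sperm, held 40.7, 40.3 and 52.8% of tRF_5 counts in tissue and 50.05, 41.9 and 43.9% in fluid, ranking first in all 6 libraries. The ranges overlapped and the difference was log2 0.02 ± 0.13 (SE, adjusted p = 0.91, edgeR). The difference of the Gly-GCC share of tRF_5 counts was 0.67 percentage points, -8.63 with only the most counted entry of each anticodon, and -1.71 to 4.78 when 1 library was left out.

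Below Gly-GCC the order changed. tRNA-Glu-CTC rose from 3.54, 4.13 and 5.601% in tissue to 13.1, 8.65 and 9.11% in fluid (log2 1.22 ± 0.23 SE, adjusted p = 0.0040, edgeR). tRNA-Gly-CCC rose from 0.233, 0.385 and 0.403% to 3.93, 4.22 and 4.53% (log2 3.63), moving from ranks 34, 26 and 23 to ranks 7, 6 and 6. tRNA-His-GTG rose from 0.508, 0.388 and 0.471% to 4.86, 3.38 and 4.83% (log2 3.26). In each of the 3 every fluid library lay above every tissue library. The initiator tRNA-iMet-CAT rose from 0.652, 0.811 and 0.783% to 1.47, 4.29 and 4.52%, a log2 difference of 2.20, with fluid replicate 1 well below the other fluid libraries. Fragments of tRNA-Asp-GTC fell from 3.37, 5.05 and 5.11% to 1.39, 2.39 and 2.01%, and those of tRNA-Lys-CTT from 2.60, 2.92 and 4.83% to 1.17, 1.88 and 1.39%. Both had a log2 difference of -1.22, and neither passed the threshold with TMM scaling within the class (-0.41 and -0.44). The Val-AAC and Val-CAC fragments, at ranks 2 and 3 in tissue replicates 1 and 2, held 4.23 to 11.6% and 3.93 to 10.2% in tissue and 7.04 to 8.21% and 5.61 to 6.88% in fluid, where the ranges overlapped. Over all 48 anticodons with tRF_5 counts tested, 10 were higher and 24 lower in fluid, with a median log2 difference of -1.16. With TMM scaling 12 were higher and 16 lower. In the table with fragments summed by anticodon, 26.3% of all 1642 entries were higher and 26.2% lower.

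For the 3′ fragments the leading anticodon differed between the materials. tRNA-Leu-CAA, at ranks 7, 7 and 5 in tissue with 4.01, 4.55 and 4.70%, ranked first in every fluid library with 18.4, 17.3 and 22.4% (log2 2.13 ± 0.14 SE, adjusted p = 0.00013, edgeR). tRNA-His-GTG followed, with 2.65, 2.03 and 3.77% in tissue and 18.4, 13.8 and 13.96% in fluid (log2 2.45). tRNA-Leu-CAG ranked next in fluid at 6.13, 6.197 and 7.80%, against 1.58, 1.96 and 2.32% in tissue. None of these overlapped between materials. In the opposite direction, tRNA-Tyr-GTA, at rank 2 in every tissue library at 13.3, 10.6 and 8.86%, fell to 0.402, 0.746 and 0.693% in fluid (log2 -4.15). tRNA-Gln-TTG fell from 9.02, 5.49 and 4.26% to 0.723, 1.75 and 1.41%, and tRNA-Glu-CTC from 1.78, 2.50 and 3.88% to 0.450, 0.487 and 0.422%. tRNA-iMet-CAT fell furthest of the 3′ fragments shown here, from 2.36, 2.90 and 2.58% to 0.00869, 0.102 and 0.0556% (log2 -5.55). Of 49 anticodons, 11 were higher and 15 lower in fluid (12 and 12 with TMM scaling), with a median of -0.27.

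For fragments from neither end, tRNA-Ser-GCT, at ranks 5, 5 and 4 in tissue with 4.53, 5.26 and 6.74%, was nearly absent from fluid at 0.00856, 0.0301 and 0.0199% (log2 -8.14 ± 0.68 SE, adjusted p = 0.00023, edgeR). tRNA-Cys-GCA fell from 21.9, 15.5 and 12.3% to 1.81, 2.58 and 2.05% (log2 -2.95). tRNA-Asp-GTC rose from 0.861, 1.49 and 1.25% to 8.01, 11.8 and 13.97%. Its direction was opposite to that of its 5′ fragments. tRNA-Gln-TTG rose from 2.04, 1.99 and 2.04% to 9.12, 7.24 and 12.0%, the reverse of its 3′ fragments. Of 50 anticodons, 15 were higher and 16 lower (18 and 15 with TMM scaling), with a median of -0.03. Gly-GCC and Gln-CTG were among the 3 largest sums of this type in every tissue library and in fluid replicates 1 and 2.

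**Figure D2:**
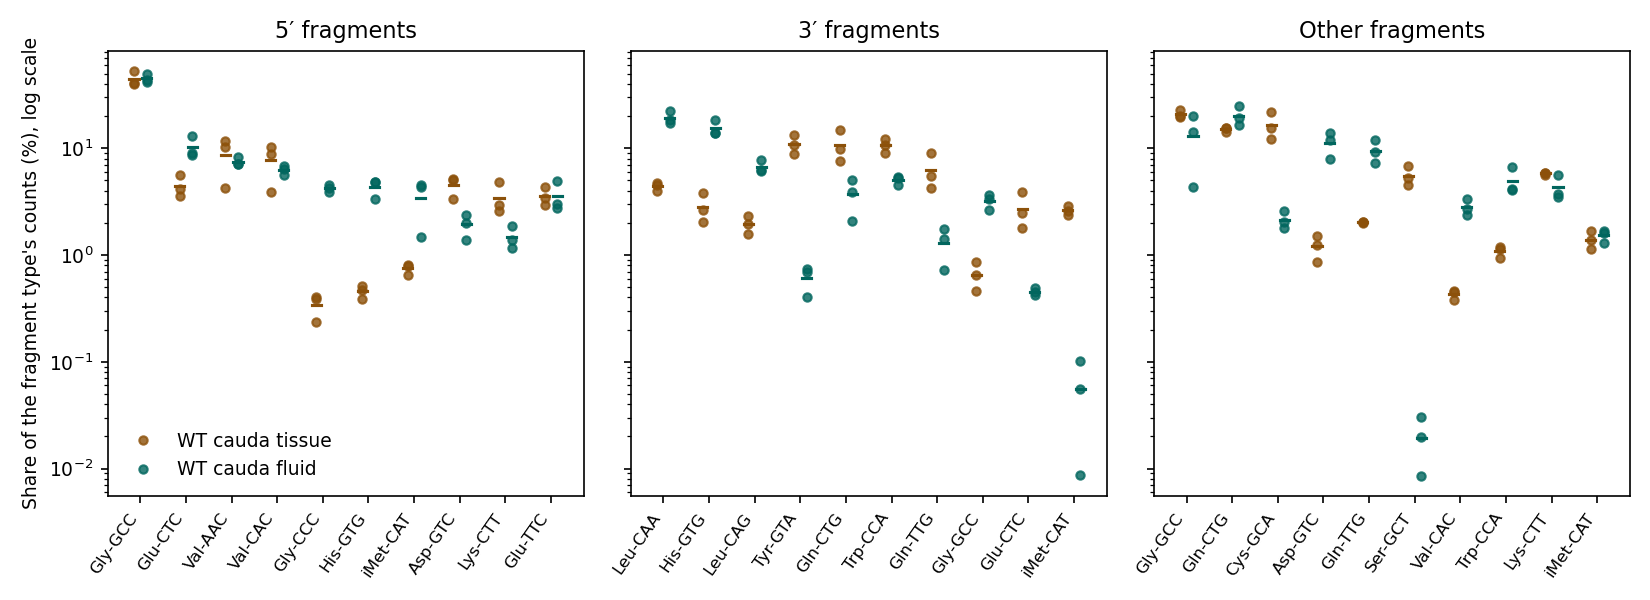
Share of each fragment type's counts (%, log scale) held by tRNA anticodons in the 3 WT cauda tissue (brown) and 3 WT cauda fluid (green) libraries; short bars are means. Gly-GCC 5′ fragments overlap between materials, 3′ fragments of Leu-CAA and His-GTG lie higher in fluid, and Tyr-GTA and iMet-CAT 3′ fragments and Ser-GCT other fragments lie lower.

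Fragments of 1 tRNA moved together for some anticodons and apart for others. Among anticodons called for both the 5′ and the 3′ fragment, 12 moved in 1 direction and 8 in opposite directions, namely Glu-CTC, Gly-CCC, iMet-CAT and the 5 leucine anticodons Leu-AAG, Leu-CAA, Leu-CAG, Leu-TAA and Leu-TAG. Glu-CTC, Gly-CCC and iMet-CAT had a higher 5′ share and a lower 3′ share in fluid. The leucine anticodons had the reverse, as Leu-CAA shows with a log2 difference of -3.15 for its 5′ and 2.13 for its 3′ fragments. For 5′ and other fragments 15 anticodons moved in 1 direction and 4 in opposite directions, and for 3′ and other fragments 5 and 9. All of these counts rest on calls with class totals. With TMM scaling 12 tRF_5 sums were higher and 16 lower, against 10 and 24, so the counts depend on the scaling. The shares are within each fragment type, so the fall of tRF_other as a whole does not enter these values. Counts of isodecoders that share reads are not independent. All anticodon sums called in WT had the same sign in KO cauda, 34 of 34 for tRF_5, 26 of 26 for tRF_3 and 31 of 31 for tRF_other. Spearman rank correlations over anticodons, given as a description, were 0.950 to 0.982 among tissue and 0.958 to 0.977 among fluid libraries for tRF_5, and 0.499 to 0.650 between tissue and fluid. Between tissue and fluid they were 0.500 to 0.610 for tRF_3 and 0.536 to 0.593 for tRF_other, much as for tRF_5.

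Full-length tRNAs rested on few counts in fluid. tRNA-Val-CAC-2 held 1.31, 1.33 and 0.853% of full-length tRNA counts in tissue and 7.32, 15.3 and 20.5% in fluid (log2 3.66, adjusted p = 0.00081, edgeR). tRNA-Glu-CTC-1 held 9.56, 10.6 and 8.50% in tissue and 4.18, 1.09 and 0.805% in fluid (log2 -2.42). Of 32 tested, 9 (28.1%) were higher and 10 (31.2%) lower, against 25.8 and 31.8% over all RNAs, and with TMM scaling 6 and 14. Through tissue alone 25% of the 32 passed the filter, which favoured a lower share in fluid. For mitochondrial tRNAs the fluid totals of 2, 18 and 7 counts allow no order to be read. Among the loci counted apart from mature tRNAs, tRNA-iMet-CAT-1-1 led tissue at 15.6, 14.6 and 39.1% and held 5.84, 8.02 and 8.00% in fluid, while tRNA-Gly-GCC-2-6 rose from 0.844, 1.01 and 0.402% to 11.6, 7.87 and 10.502%.

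miRNAs kept their order among the libraries of 1 material and had another order in the other material. Spearman correlations of shares over the 158 hairpins tested, again as a description, were 0.920 to 0.960 among tissue and 0.925 to 0.955 among fluid libraries, and 0.215 to 0.312 between them. In fluid 76 hairpins (48.1%) were higher and 35 (22.2%) lower, with a median log2 difference of 1.20 against -0.41 over all RNAs tested. Of the higher hairpins, 48 had 10 counts in at most 1 tissue library and so passed the filter mainly through fluid, which favoured a higher share. Mir143, a miRNA of smooth muscle and other mesenchymal cells, took 37.3, 32.6 and 35.7% of tissue miRNA counts and 3.82, 4.71 and 3.71% of fluid counts (log2 -3.11 ± 0.38 SE, adjusted p = 0.00041, edgeR). With TMM scaling within the class, 47 hairpins were higher and 45 lower, and the median moved to 0.16, so smaller differences below depend on the scaling. Mature sequences of hairpins higher, lower and not called had median GC contents of 45.6, 46.5 and 45.5%.

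Mir145a is made from the same primary transcript as Mir143. It held 1.63, 1.91 and 2.80% in tissue and 3.71, 2.81 and 4.06% in fluid, and was not called (log2 0.74, adjusted p = 0.15, edgeR, and -0.28 with TMM scaling). The hairpins of this cluster thus had log2 differences that lay far apart. Members of a cluster that holds Mir99a, Mirlet7c-1 and Mir125b-2 did so as well. On chromosome 16 Mir99a, at chr16:77598940-77598961 (mature arm, GRCm38, plus strand), held 1.60, 2.21 and 1.42% in tissue and 0.805, 0.836 and 1.87% in fluid (log2 -0.58, not called, and -1.53 and called with TMM scaling). Mirlet7c-1, at chr16:77599672-77599693, held 2.06, 1.80 and 2.45% in tissue and 4.44, 2.68 and 2.26% in fluid (log2 0.57, not called, and -0.38 with TMM scaling). Mir125b-2, at chr16:77646279-77646300, held 0.312, 0.588 and 0.468% in tissue and 5.93, 4.28 and 4.37% in fluid (log2 3.42, adjusted p = 0.00059, edgeR). Of these 3 neighbours, Mir125b-2 alone had libraries that did not overlap. Its mature sequence is the same as that of Mir125b-1 (log2 3.50), so the counts of these hairpins cannot be divided between the loci.

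In the family printed first, the hairpins of miR-10 and miR-100 were lower and those of miR-125b higher. Mir10a fell from 7.09, 7.79 and 7.07% to 1.08, 0.676 and 0.745% (log2 -3.13 ± 0.42 SE, adjusted p = 0.00064, edgeR). Mir10b fell from 5.57, 5.64 and 5.85% to 1.06, 0.666 and 0.574% (log2 -2.89). Mir100 fell from 0.312, 0.355 and 0.286% to 0.0755, 0.0743 and 0.0538% (log2 -2.19). Mir125b-2 rose as given above, and Mir125b-1 shares its reads. Over all 8 hairpins 3 were higher and 4 lower.

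The miR-29 family, known for repressing collagen and other matrix genes, had higher shares in fluid. Mir29a, the member with over 10 counts in every tissue library, held 0.132, 0.270 and 0.170% in tissue and 3.09, 2.83 and 2.17% in fluid (log2 3.85 ± 0.48 SE, adjusted p = 0.00047, edgeR, and 2.95 with TMM scaling). Mir29c held 0.0120, 0.0123 and 0.0115% in tissue, on 2, 1 and 11 counts, and 0.658, 0.684 and 0.520% in fluid. Mir29b-1 was at 0, 0.0368 and 0.0105% in tissue, on 0, 3 and 10 counts, and at 1.10, 2.44 and 2.91% in fluid. Mir29c and the Mir29b hairpins passed the filter through fluid, and Mir29b-1 and Mir29b-2 share 1 mature sequence, so the 4 calls are not 4 separate measurements.

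Within let-7, a family that holds cells in a differentiated state, members of 1 seed differed. The share of the family was 13.1, 11.1 and 13.9% in tissue and 16.1, 11.6 and 8.77% in fluid, which overlapped. With Mir143 left out of the class total, the mean of the let-7 family share of miRNA counts was 19.6% in tissue and 12.7% in fluid. Mirlet7b rose from 0.300, 0.282 and 0.389% to 1.47, 1.02 and 0.682% (log2 1.70, and 0.74 and not called with TMM scaling), and Mirlet7d had a log2 difference of 1.39 (0.44 with TMM scaling). Mirlet7f-1 fell from 2.15, 1.69 and 2.0004% to 0.751, 0.639 and 0.314% (log2 -1.77, and -2.67 with TMM scaling), and Mirlet7f-2 and Mirlet7g were lower too, at -1.50 and -1.31 (-2.42 and -2.23 with TMM scaling). The other 7 of the 12 hairpins, those of let-7a and let-7c among them, were not called. With TMM scaling 0 were higher and 4 lower, and the family's median moved from 0.06 to -0.89, so no direction can be given for the family as a whole.

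The miR-30 family was also split. Mir30b rose from 0.0300, 0.0490 and 0.0346% to 0.440, 0.804 and 0.978% (log2 4.33), and both miR-30c hairpins rose (Mir30c-1 by 3.10), while Mir30a fell from 1.13, 0.894 and 1.07% to 0.367, 0.530 and 0.359% (log2 -1.30, and -2.24 with TMM scaling). Mir30d and Mir30e were not called. The same counts, 3 higher and 1 lower, held with TMM scaling. Mir26b rose from 0.192, 0.159 and 0.255% to 1.84, 1.77 and 1.42% (log2 3.03), and the 2 Mir26a hairpins had a log2 difference of 1.11, or 0.16 with TMM scaling. Mir21a rose from 1.60, 1.26 and 1.43% to 4.90, 5.59 and 4.11% (log2 1.77), and with TMM scaling its difference of 0.83 was not called. Of 8 hairpins tested from the miR-17/92 clusters, which promote proliferation, 7 were higher and none lower, where 48.1% of all hairpins tested were higher, and with TMM scaling 3 were higher and 1 lower. Mir19b-2 and Mir19b-1 had the largest log2 differences among them (6.72 and 6.21). Mir19b-1 held 0.0180, 0.0245 and 0.00944% in tissue and 0.654, 0.995 and 1.57% in fluid. It was close to the detection limit in tissue and passed the filter through fluid, which favoured a call as higher. Mir19b-1 and Mir19b-2 share a mature sequence, so the 7 calls are not 7 separate measurements.

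**Figure D3:**
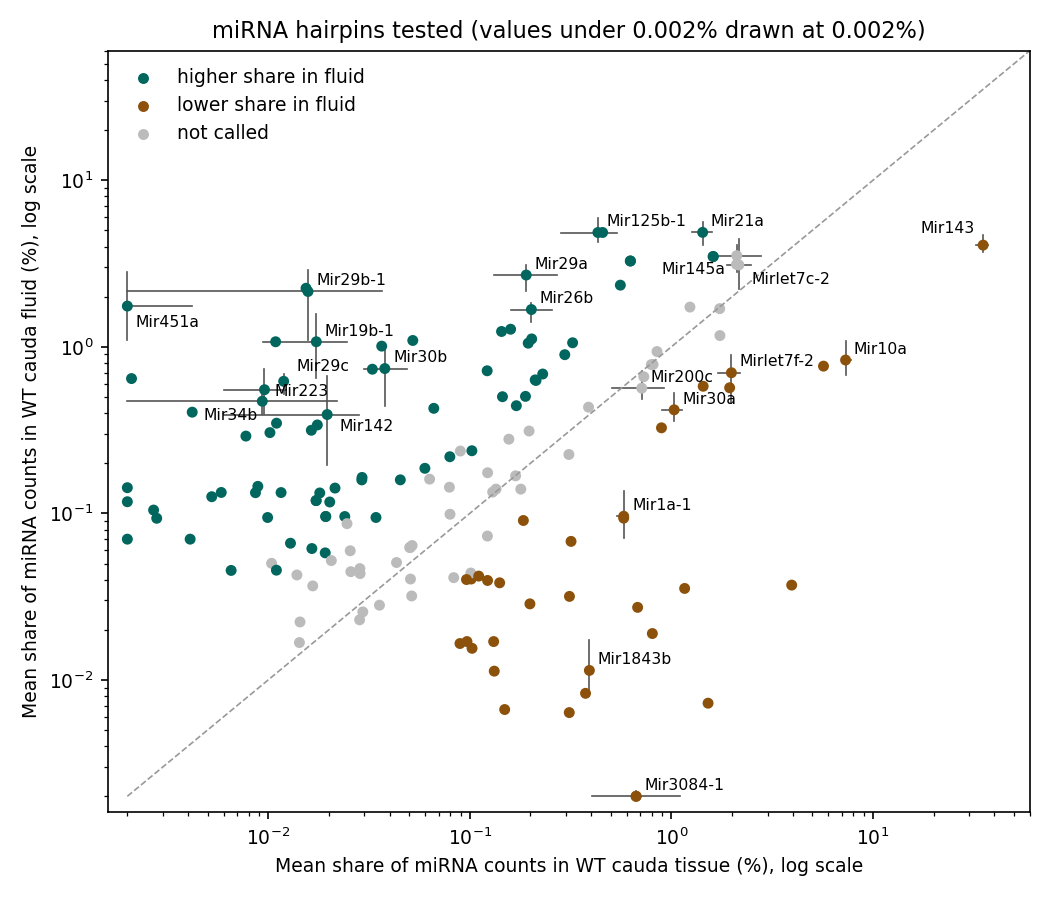
Mean share of miRNA counts (%, log scales) of the 158 hairpins tested in WT cauda tissue (horizontal) and WT cauda fluid (vertical), n = 3 each; green points were higher in fluid, brown lower, grey not called, lines on labelled points span the libraries, and the dashed line marks equal shares. Mir143 and Mir10a lie below the line, and the miR-29 hairpins, Mir125b-1, Mir451a and Mir223 above it.

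miRNAs that mark cell types differed between the materials. The miR-200 group, which marks epithelium, took 2.83, 2.78 and 3.201% in tissue and 2.15, 3.97 and 3.97% in fluid, and 0 of its 5 hairpins were called. With TMM scaling 2 of the 5 were lower. Markers of leukocytes were close to the detection limit in tissue, where Mir142, Mir150 and Mir223 together held 0.0120, 0.0368 and 0.0472%, and stood at 0.643, 1.30 and 1.18% in fluid. None of the 3 reached 10 counts in more than 1 tissue library, so they passed the filter through fluid, which favoured a call as higher. Mir451a, made in erythrocytes, had no count in tissue replicates 1 and 2, which allows a share of up to 0.0180 and 0.0368%, was at 0.00420% in replicate 3, and held 1.38, 1.10 and 2.80% in fluid, through which alone it passed the filter. Mir126a of endothelium held 0.198, 0.270 and 0.222% in tissue and 0.742, 0.735 and 0.583% in fluid (log2 1.59, not called with TMM scaling). Mir1a-1 of striated muscle fell from 0.612, 0.588 and 0.540% to 0.136, 0.0716 and 0.0808%. Of the 4 muscle hairpins, 2 were lower and none higher, where 22.2% of all hairpins tested were lower. The lower ones were Mir1a-1 and Mir1a-2 (log2 -2.57 and -2.61), while Mir133a-1 and Mir133a-2 were not called (0.44 and 0.43). Values within each pair were nearly the same, so these hairpins may not be separate measurements. The shares of blood markers lay higher in all 3 fluid libraries, beside each of the miRNA differences above, and their part in those results was not tested. Intervals and limits of this kind cover counting error only.

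miRNAs of germ cells and ciliated cells were low in tissue. Both Mir34b and Mir34c passed the filter mainly through fluid, which favoured a call as higher. Mir34b held 0.00600, 0 and 0.0220% in tissue and 0.499, 0.395 and 0.520% in fluid (log2 5.01, on 1, 0 and 21 tissue counts), and Mir34c 0.0300, 0.0123 and 0.0451% against 0.168, 0.138 and 0.170% (log2 2.23, and 1.13 and not called with TMM scaling). The X-linked miR-465 group, which is abundant in testis, had 5 of 6 hairpins tested higher in fluid, where 48.1% of all hairpins tested were higher. The group was close to the detection limit in tissue replicate 2, and none of its hairpins passed the filter without fluid libraries. This favoured a call as higher. Mir465b-1 and Mir465b-2 had the same counts, as had Mir465c-1 and Mir465c-2, so the 5 calls are 3 measurements. As a group, with such pairs counted on both entries, it held 0.198, 0.0123 and 0.282% in tissue and 0.874, 0.899 and 0.897% in fluid, and with TMM scaling 1 of the 6 was called. Mir3084-1 went the other way, with 0.402, 1.10 and 0.501% in tissue and 0.00216, 0 and 0% in fluid. Mir1843b held 0.372, 0.404 and 0.400% in tissue and 0.0173, 0.00796 and 0.00897% in fluid (log2 -4.97). Mir3084-1 and Mir1843b passed the filter through tissue alone, which favoured a call as lower.

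Ensembl also lists as miRNAs 67 entries without a Mir name. They were kept apart, a choice made after the data were seen. Of these entries 7 share at least 50% of their 15-base words with the signal recognition particle RNA 7SL, and they took 77.2, 74.2 and 72.9% of that class in tissue and 98.1, 95.7 and 97.8% in fluid. Counted with the miRNAs they would have changed the class total, and with all Ensembl entries as 1 class the miRNA median was 1.43.

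Ribosomal RNA fragments shifted towards 28S. The entry 28S_rRNA_2 held 29.6, 28.9 and 28.3% of counts on rRNA sequences in tissue and 44.4, 45.6 and 45.4% in fluid. The small rRNAs of the large subunit fell. 5S rRNA fell from 11.8, 14.8 and 9.76% to 2.43, 1.75 and 2.79% (log2 -2.38 ± 0.25 SE, adjusted p = 0.00019, edgeR), and 5.8S rRNA from 7.71, 4.30 and 8.79% to 0.298, 0.378 and 0.293% (log2 -4.42). 18S rRNA held 21.97, 21.3 and 23.1% in tissue and 12.6, 13.8 and 12.0% in fluid. Mitochondrial rRNAs fell too, the large from 1.35, 2.10 and 1.76% to 0.214, 0.188 and 0.173% (log2 -3.18) and the small from 0.585, 0.768 and 0.674% to 0.00745, 0.0235 and 0.00891% (log2 -5.67). Of these 7 sequences 0 were called higher and 4 lower by edgeR, with an unadjusted p under 0.05 for 2 higher and 5 lower. The 2 28S entries passed the p threshold without reaching a log2 difference of 1. A scaling that takes the median of ratios over so few sequences set 5S at 0 and turned 18S to 1.62, so the directions are those of shares only.

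Ribosomal repeat entries of the genome annotation were led by 5S repeats in both materials, at 93.9, 93.8 and 90.01% in tissue and 82.4, 72.2 and 84.02% in fluid. Some 28S entries were nearly missing from tissue. rmsk_28S_1000 held 0.000544, 0.000389 and 0.000920% in tissue and 1.90, 2.65 and 1.62% in fluid (log2 11.69), and rmsk_28S_756 had a log2 difference of 12.68. Of 329 repeats 88 (26.7%) were higher and 50 (15.2%) lower, against 25.8 and 31.8% over all RNAs. With TMM scaling 77 were higher and 122 lower. Through tissue alone 20.1% of the repeats passed the filter, which favoured a lower share in fluid. Repeats share reads, so these entries are not separate measurements.

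Among the other structured RNAs, Y1 stood out. Rny1, a cytoplasmic RNA that binds the Ro60 protein and is often found as fragments outside cells, held 2.63, 3.53 and 3.80% of the class in tissue and 21.7, 26.1 and 25.2% in fluid (log2 2.87 ± 0.26 SE, adjusted p = 0.00016, edgeR). Rny3 held 0.470, 0.795 and 1.14% in tissue and 0.474, 4.83 and 1.48% in fluid, where the ranges overlapped (log2 1.49, adjusted p = 0.13, edgeR, and 2.91 and called with TMM scaling). Fluid replicate 2 was the high library. The transcripts are shown because these related RNAs lie close together on chromosome 6 and differed in how firmly they were called. Both are on GRCm38, Rny1 at chr6:47788069-47788180 on the minus strand and Rny3 at chr6:47781624-47781725 on the plus strand.
Rny1: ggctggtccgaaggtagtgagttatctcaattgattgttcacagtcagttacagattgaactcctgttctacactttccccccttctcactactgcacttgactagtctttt
Rny3: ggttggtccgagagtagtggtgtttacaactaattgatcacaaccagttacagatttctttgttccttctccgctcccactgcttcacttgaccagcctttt

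Rn7sk, Rmrp and Rpph1 had lower shares in fluid. Rn7sk, which holds the elongation factor P-TEFb inactive in the nucleus, fell from 21.4, 18.8 and 10.45% to 0.315, 1.78 and 0.393% (log2 -4.34). Rmrp, the RNA of RNase MRP, fell from 1.55, 1.70 and 1.40% to 0.0931, 0.183 and 0.141% (log2 -3.48). Rpph1, the RNA of RNase P, fell from 0.607, 0.585 and 0.524% to 0.135, 0.101 and 0.0761% (log2 -2.46, and -0.14 and not called with TMM scaling). The cytoplasmic 7SL held 45.2, 46.8 and 45.6% in tissue and 51.1, 37.4 and 48.9% in fluid. Vaultrc5, a vault RNA, held 0.352, 0.484 and 0.285% against 0.0877, 0.170 and 0.0713% (log2 -1.77, and 0.21 with TMM scaling). Of the 85 RNAs tested in this class 7 were higher and 26 (30.6%) lower, against 31.8% lower over all RNAs, and with TMM scaling 28 were higher and 19 lower.

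Spliceosomal RNAs changed their leading member. U1, which binds the 5′ splice site, held 22.4, 34.6 and 37.6% of snRNA counts in tissue and 68.2, 58.7 and 60.3% in fluid, summed over 23 entries. U2, which binds the branch point, held 71.0, 59.3 and 50.2% in tissue and 11.8, 19.2 and 22.4% in fluid, summed over 13 entries. The tissue and fluid libraries did not overlap for either. U5 fell from 1.75, 1.73 and 3.35% to 0.906, 0.936 and 0.983%. U6 held 0.0991, 0.162 and 0.103% in tissue and 0.179, 0.368 and 0.245% in fluid. Single U1 and U2 genes had log2 differences of 0.85 for Rnu1a1 (not called, and -0.12 with TMM scaling) and -1.79 for Rnu2-10. Of the snRNA entries tested, 83 (40.7%) were higher and 53 (26%) lower, against 25.8 and 31.8% over all RNAs. With TMM scaling 55 were higher and 79 lower. Through tissue alone 20.6% of them passed the filter, which favoured a lower share in fluid. Entries of like sequence can share reads, so they may not be separate measurements. In the snoRNA class U3, which guides early rRNA processing, held 56.1, 62.5 and 43.2% in tissue and 56.5, 53.4 and 56.5% in fluid, and 19 of 184 entries (10.3%) were higher and 65 (35.3%) lower, against 25.8 and 31.8% over all RNAs. Of these entries 67.9% passed the filter through tissue alone, which favoured a lower share in fluid. The fluid snoRNA totals of 3191 to 10277 counts set a coarse limit for the rest.

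**Figure D4:**
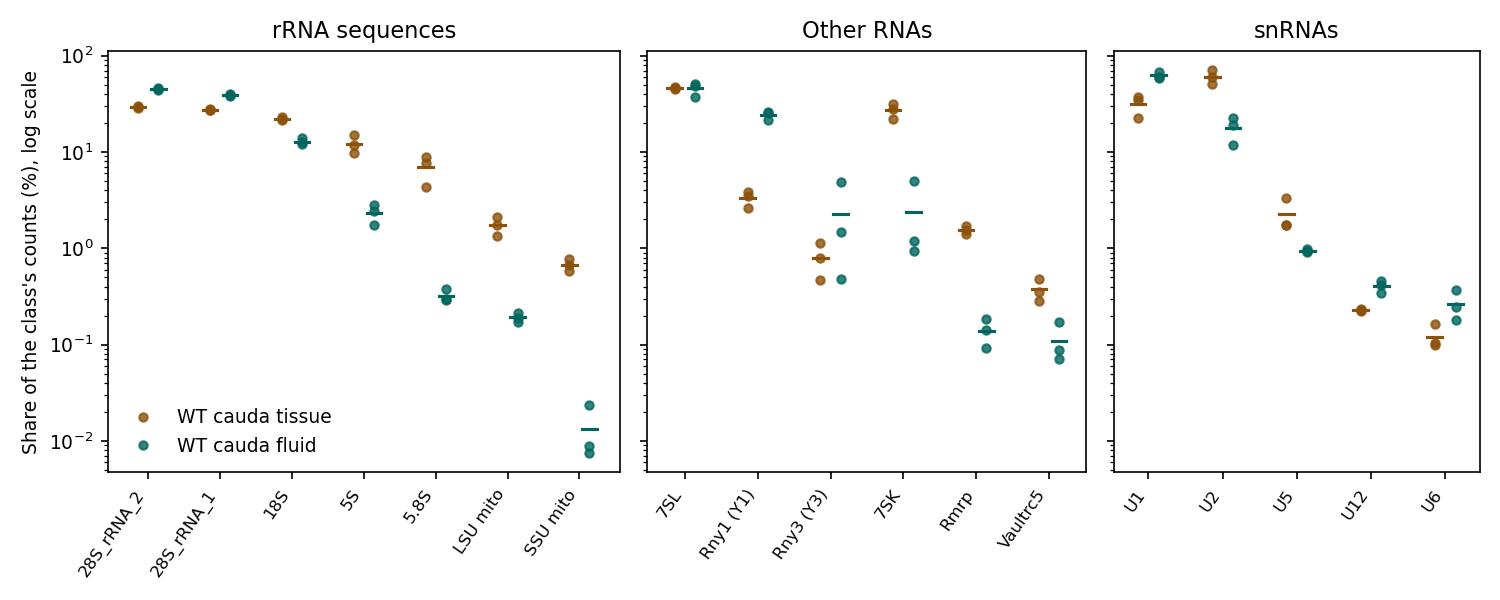
Share of the class's counts (%, log scale) for rRNA sequences, other structured RNAs and spliceosomal RNAs in the 3 WT cauda tissue (brown) and 3 WT cauda fluid (green) libraries; short bars are means, and 7SL, 7SK and the snRNAs are summed over entries of like sequence. Y1 lies higher and 7SK, Rmrp, 5.8S and the mitochondrial rRNAs lower in fluid, U1 and U2 exchange places, and Y3 overlaps.

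Loci listed as piRNA sources, 291 of which were tested, had 81 (27.8%) higher and 90 (30.9%) lower, close to the 25.8 and 31.8% over all RNAs. Of the higher loci, 53 had 10 counts in at most 1 tissue library and so passed the filter mainly through fluid. For these the filter favoured a higher share. The 3 overlapping pi-Ctdsp2 entries led in fluid, and 1 of them, pi-Ctdsp2.3, rose from 1.79, 1.04 and 2.06% to 12.8, 8.72 and 6.37% (log2 2.51). Mir26a-2 lies inside the Ctdsp2 gene, at chr10:126995530-126995613 (GRCm38). The counts of the locus were 1576, 1385 and 406 in fluid and those of Mir26a-2 were 1548, 1355 and 393. In tissue replicates 1 and 3 they were 406 and 1967 for the locus and 284 and 1534 for the hairpin. The log2 difference was 1.11 for the hairpin among miRNAs and 2.51 for the locus among piRNA loci, so close to the same fluid counts gave different values with a different class total. pi-Lpp.1 led in tissue and fell from 4.47, 4.52 and 3.89% to 0.881, 1.07 and 0.989% (log2 -2.13). pi-Rplp1.1 rose from 0.136, 0.138 and 0.190% to 1.26, 1.60 and 1.74% (log2 3.30).

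A comparison with WT caput, the first segment, bears on the method. Caput tissue and fluid were sequenced with the same pair of methods, so a preference of a method for an RNA that is the same in both segments drops out of the difference between segments. A preference for other members of its class can still enter through the class total. The caput groups were taken from the titles, although the section field of the caput fluid libraries and of 1 caput tissue library reads cauda. Of 2380 RNAs tested for this interaction, 140 (5.88%) had a higher and 207 (8.70%) a lower fluid to tissue difference in cauda than in caput. The counts depend on single libraries, and without caput tissue replicate 1 they were 55 and 92. By class, 8 of 186 miRNAs were higher and 7 lower, 20 of 197 tRF_5 entries higher and 22 lower, and 9 of 341 rRNA repeats higher and 60 lower.

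**Figure D5:**
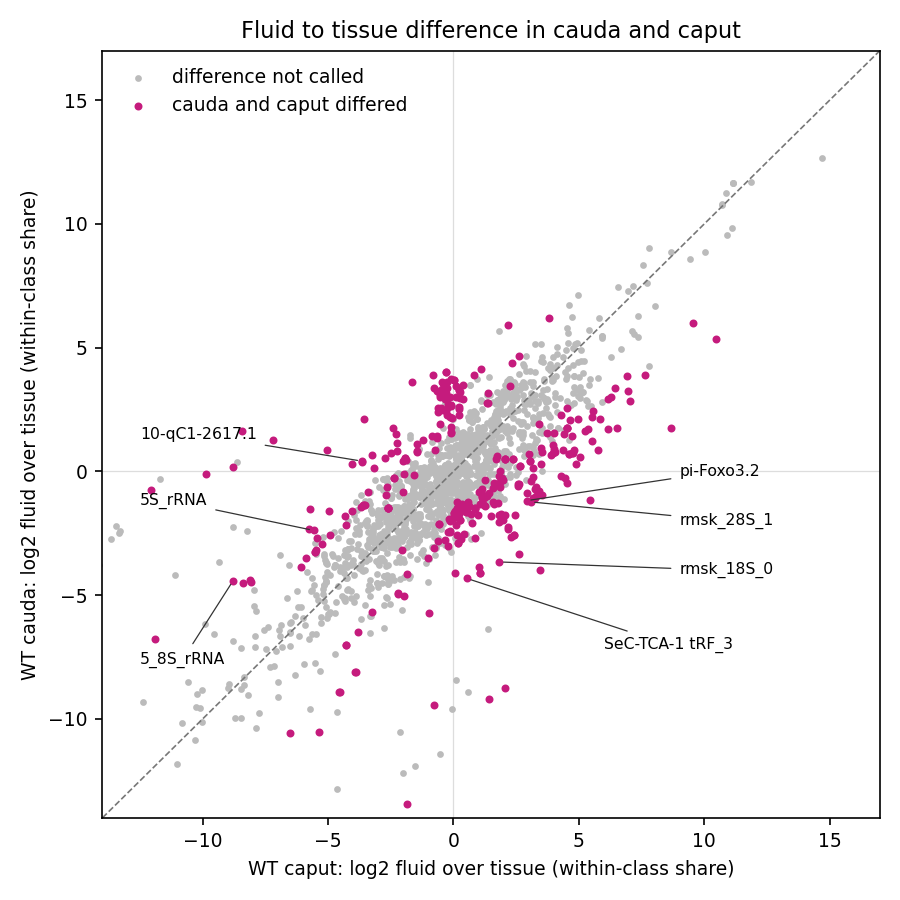
Log2 difference of fluid over tissue in share within the class for RNAs with a value in both segments, WT caput (horizontal) against WT cauda (vertical); RNAs whose cauda and caput differences were called different are magenta, the others grey, and the dashed line marks equality. 5_8S_rRNA and 5S_rRNA lie above the line, and rmsk_28S_1 and rmsk_18S_0 below it.

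Among the tRFs named above, 5′ fragments of valine tRNAs differed between the segments. Val-AAC had a log2 fluid to tissue difference of -0.22 in cauda and -2.60 in caput, which differed by 2.38 ± 0.51 (SE, adjusted p = 0.010, edgeR), and Val-CAC differed by 2.35 (adjusted p = 0.0096, edgeR). His-GTG 5′ fragments were higher in fluid in both segments, by 3.26 in cauda and 2.001 in caput, and the difference of 1.26 was called (adjusted p = 0.017, edgeR). Gly-CCC, Glu-CTC and iMet-CAT 5′ fragments did not pass the test of the difference (-1.26, -0.16 and 0.80, adjusted p = 0.068 to 0.86, edgeR). Trp-CCA 3′ fragments were lower in fluid in both segments, with log2 -1.08 in cauda and -2.43 in caput (difference 1.35, adjusted p = 0.0065, edgeR).

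The leading miRNA differences above had the same sign in caput. Mir143 had -2.29 in caput and -3.11 in cauda (difference -0.82, adjusted p = 0.22, edgeR), and Mir10a had -3.24 and -3.13. Mir29a had 4.51 in caput and 3.85 in cauda, and Mir125b-1 had 2.71 and 3.50. A difference between the segments was called for Mir34b (3.71, adjusted p = 0.013, edgeR), Mir34c (2.79, adjusted p = 0.022) and Mir19b-1 (2.44, adjusted p = 0.036). Each had the larger value in cauda. In cauda tissue replicates 1 and 2 all of them were at or near the detection limit. The sizes of these differences thus rest on few tissue counts and are uncertain. Among structured RNAs, Rny1 had 3.67 in caput and 2.87 in cauda and did not pass (adjusted p = 0.11, edgeR), and Rny3 had 4.40 in caput and 1.49 in cauda and passed (difference -2.90, adjusted p = 0.036, edgeR). SSU_mito, the small mitochondrial rRNA, had log2 -3.25 in caput and -5.67 in cauda (difference -2.41, adjusted p = 0.019, edgeR). Of the 7 rRNA sequences 2 had a higher and 4 a lower difference in cauda. They share a class total, of which 5S rRNA took 37.2 to 53.7% in caput tissue and 0.751 to 1.14% in caput fluid. How far this enters the SSU_mito value was not tested.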

How the data were processed

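Small RNAs were measured by sequencing in WT cauda tissue and WT cauda fluid, 3 libraries each. Per the study's methods, the authors trimmed adapters and unique molecular identifiers with cutadapt. UMI-tools is named in the submitters' processing notes, but whether duplicates were collapsed is not given in the sources used here. They mapped reads with bowtie2 in a modified tRAX pipeline to mm10 with added tRNA and rRNA sequences, kept all best matches with precedence for tRNAs and then rRNAs, and deposited raw read counts per RNA. Tissue and fluid tables were joined on row names. Ensembl names were matched for 951 of 955 rows.

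Groups came from titles and labels. Counts were tested with edgeR 4.0.16 in R 4.3.3, using log class totals as offsets and RNAs with at least 10 counts in at least 3 libraries, with Benjamini-Hochberg adjustment over all RNAs tested. The interaction with caput used 12 libraries in 1 fit. A call needs an adjusted p under 0.05 and a log2 difference beyond 1. On data simulated for the cauda comparison (2066 RNAs, 200 changed by log2 2) edgeR called 59.5% of the changed RNAs and 10 unchanged ones, and DESeq2 1.42.0 called 73.0% and 20. The simulated counts were drawn and fitted with the same class totals, with as many RNAs raised as lowered. They therefore do not test errors of the scaling. The study calls the libraries biological replicates, and p-values measure the spread between them.

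Named RNAs were the 2 largest shares per class and material, the 2 with the smallest p per class and direction with a mean share of at least 0.1% and no overlap, tRNA sums for listed anticodons, rRNAs, snRNAs and other structured RNAs, listed miRNA families and cell type markers, and the 5 smallest p per direction in the interaction. Sums for leucine, Tyr-GTA, Trp-CCA, Cys-GCA, Ser-GCT and Gln-CTG tRNAs were picked after their values were seen. The RNAs and lists were chosen with earlier results of these data known. snRNAs and other RNAs were grouped by shared 15-base words. TMM, median-of-ratios and other alternatives were computed, and sperm libraries serve only as values set beside the others.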

Additional observations from a re-analysis of the deposited data

Results flagged for a closer look

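The RNAs below had a fluid to tissue difference that differed between cauda and caput (edgeR interaction, adjusted p from 6.4e-05 to 0.0023), and are given as the log2 difference of cauda over caput. 5_8S_rRNA differed by 4.37 and 5S_rRNA by 3.196. Both took more of the rRNA counts in caput tissue (14.7, 17.9 and 18.6% for 5.8S and 53.7, 47.7 and 37.2% for 5S) and less in caput fluid than in the cauda libraries. A pair of piRNA entries of the cluster 10-qC1, whose counts are nearly the same, differed by 4.08 and 3.99, with 1.501, 1.86 and 1.76% in caput tissue against 0.0968, 0.143 and 0.171% in cauda tissue for the former. Mir375 differed by 5.90, a value that rests on counts of 0, 0 and 2 in cauda tissue, depends on the prior count of the fit and is no bound. It held 0.0302, 0.0504 and 0.0359% in cauda fluid, 0.501, 0.345 and 0.604% in caput tissue and 0.119, 0.231 and 0.156% in caput fluid.

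In the other direction, rmsk_28S_1 differed by -4.31 and rmsk_18S_0 by -5.49, each lower in cauda fluid than in cauda tissue and higher in caput fluid than in caput tissue. The 3′ fragment of tRNA-SeC-TCA-1, the selenocysteine tRNA, differed by -4.87, with 0.443, 0.840 and 0.943% in cauda tissue, 0.0112, 0.0607 and 0.0391% in cauda fluid, 0.135, 0.140 and 0.215% in caput tissue and 0.274, 0.201 and 0.239% in caput fluid. The overlapping loci pi-Foxo3.3 and pi-Foxo3.2 differed by -4.34 and -4.10, and pi-Foxo3.3 held 2.46, 6.76 and 4.998% of piRNA counts in caput fluid against 0.391, 0.372 and 0.204% in cauda fluid.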

How the results depend on the processing

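Of 230 named results, 147 kept their side of the threshold under every setting run, and their direction where they were called. A change of sign in a result called in neither fit was not counted against it. The RNAs higher and lower in fluid numbered 319 and 340 with 10 counts required in all 6 libraries, where fewer RNAs were tested. The lower RNAs numbered 398 with the most counted entry of each anticodon and rRNA type and 430 with tRFs summed by anticodon. Leaving out 1 library gave 411 to 487 higher and 383 to 695 lower RNAs (383 without tissue replicate 1 and 409 without tissue replicate 2). The filter still asked for 3 libraries, so RNAs could no longer pass through tissue alone when a tissue library was left out. RNAs tested then numbered 1704, 1698 and 1632 without tissue replicates 1, 2 and 3, against 2066 in the main fit. For the difference from caput, leaving out 1 library gave 55 to 168 higher and 92 to 355 lower RNAs. Higher RNAs numbered 71 and 79 without cauda tissue replicates 1 and 2, 86 without cauda fluid replicate 3, 55 without caput tissue replicate 1, and 77, 83 and 84 without caput fluid replicates 1, 2 and 3. Lower RNAs numbered 127 without cauda tissue replicate 2, 355 and 122 without cauda fluid replicates 2 and 3, 92 without caput tissue replicate 1, 127 without caput fluid replicate 2, and between 127 and 156 without caput fluid replicate 3. The cause was not tested.

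With the most counted entry of each anticodon or hairpin name, the fluid minus tissue difference in percentage points was -2.83 for the tRF_3 share of tRF counts, -8.63 for the Gly-GCC share of tRF_5 counts and 1.63 for the let-7 family share of miRNA counts. With all Ensembl miRNA entries as 1 class it was 1.15 for let-7. Leaving out 1 library gave -1.71 to 4.78 for Gly-GCC, below 0 without tissue replicate 1 or 2 or fluid replicate 1, and -2.48 to 1.18 for let-7, above 0 without tissue replicate 3 or fluid replicate 3. Sign changes are listed here only for results called in the main fit or under the other setting. They were 1.62 for 18S_rRNA with median-of-ratios factors, and 0.12 for Rn7s6 and 0.21 for Vaultrc5 with TMM. Results called in neither changed sign too, such as Mir145a (0.74, and -0.28 with TMM) and Mir200a (0.48, and -0.50 with TMM). With all tRFs as 1 class, whose total holds the shift between fragment types, tRF_other sums turned to -2.44 for Ala-TGC, -2.74 for Gln-CTG (-2.66 for the entries Gln-CTG-2 and Gln-CTG-3), -0.96 for Gln-TTG, -2.74 for His-GTG, -2.95 for iMet-CAT, -0.44 for Val-AAC and -0.27 for Val-CAC. The tRF_5 sums turned to 1.08 for Gln-TTG, 1.10 for Glu-TTC and 1.04 for Val-AAC.

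Deviations of libraries with the same replicate number correlated at 0.090, -0.159 and -0.141, so the numbers do not pair them. A replicate block gave 494 higher and 641 lower RNAs, and 160 and 289 for the difference from caput. Depth limits the full-length and mitochondrial tRNAs, the snoRNAs in fluid and the miRNAs in tissue replicate 2.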

Other observations

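The 4 WT cauda sperm libraries, made by OTTR-seq like the fluid libraries, entered no comparison and are given as the lowest, median and highest share. In sperm, tRF_5 took 16.0, 20.7 and 27.03%, tRF_3 22.9, 26.1 and 30.2% and tRF_other 48.9, 51.4 and 58.4% of tRF counts. Gly-GCC held 16.1, 23.2 and 34.7% of sperm tRF_5 counts. Mir34b held 0.924, 1.82 and 2.18% and Mir34c 0.683, 1.41 and 1.81% of sperm miRNA counts, above the highest fluid library for both. Mir143 held 0.426, 0.718 and 0.817% and Mir451a 0.261, 0.455 and 0.817%, below the lowest fluid library for both. Rny1 held 3.78, 5.41 and 7.83% of the counts of its class in sperm, below each fluid library. These differences were not tested.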
